A study of Mus musculus with 8 samples.

Results

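The hematopoietic growth factor receptors are cell-surface proteins through which blood-forming and myeloid cells sense the cytokines that set their survival, number and type. Here they are 9 mouse genes, Flt3, Kit, Csf1r, Csf2ra, Il3ra, Csf2rb, Csf2rb2, Csf3r and Lifr, chosen by name and matched through their Ensembl IDs, out of 55487 genes in each table of read counts. RNA was sequenced from 8 libraries of conventional dendritic cells (cDC), antigen-presenting cells sorted from the spleens of untreated C57BL/6 mice. The 4 groups of 2 libraries each were Zeb2 mutant cDC1, labelled Zeb2 -165(d1+2+3), wild-type (WT) cDC1, Irf8 mutant cDC2, labelled Irf8 +32-/-, and WT cDC2. The names point to enhancers of Zeb2, a repressor that cDC2 use, and of Irf8, the factor that cDC1 need. Each mutant was profiled in 1 subset only, so that neither effect was measured in the other subset. The labels give no age, number of animals per library or sort gate, and do not say what a replicate is. The p-values below set differences against the spread between libraries, estimated over all 4 groups and steadied with other genes. Whether that is a spread between animals is not known.

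FLT3, KIT and CSF1R are related receptor tyrosine kinases, which phosphorylate themselves once their ligand pairs them. FLT3 and its ligand drive the development and upkeep of dendritic cells, KIT binds stem cell factor, and CSF1R binds the macrophage factors M-CSF and IL-34. The other receptors have no kinase of their own and signal through JAK kinases and STAT factors. CSF2RA (for GM-CSF) and IL3RA (for IL-3) bind the ligand and share the signalling beta chain CSF2RB, and mice carry a further beta chain gene, Csf2rb2, whose product serves IL-3 alone. CSF3R is the G-CSF receptor of neutrophils, and LIFR binds leukemia inhibitory factor together with gp130, the product of Il6st.

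Libraries held between 49380686 and 58611821 counts. Levels are given as CPM, read counts scaled to a common library total, with TMM, a factor that evens out the makeup of the libraries, and a gene was called changed at a Benjamini-Hochberg adjusted p under 0.05 in edgeR over 20631 tested genes, among them all 9 receptors. The labelled subsets held their markers: the summed CPM of 10 cDC1 markers was 12036 to 14370 over the 4 cDC1 libraries and 1782 to 2027 over the 4 cDC2 libraries, and that of 10 cDC2 markers was 33.8 to 55.3 over the cDC1 and 2499.7 to 2798 over the cDC2 libraries. In the profiled cells the targeted genes themselves were not called against WT. Zeb2 had 2.24 and 3.54 CPM in Zeb2 mutant cDC1 against 2.09 and 2.10 CPM in WT cDC1 (edgeR adjusted p = 0.477), and Irf8 had 147 and 120.0 CPM in Irf8 mutant cDC2 against 126 and 104 CPM in WT cDC2 (edgeR adjusted p = 0.914). Each mutant thus carries its altered enhancer in the subset where the gene is low also in WT mice, and these levels check no label. The WT cDC1 libraries stood apart from each other: replicate 2 held 25993 genes with a count and replicate 3 held 32358, the lowest and the highest number of the series, and results that rest on one of them are given without it.

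Stretches of sequence are shown for the genes on which the comparisons turn, from RefSeq's GRCm38.p6 promoter table, which held 7 of the 9 receptors. Each covers up to 250 bases before the annotated start, 5′ to 3′ on the gene's strand, and capitals mark matches to any of 6 motifs searched on both strands. The first, of Csf3r (chr4:126024409-126024549, plus strand), ends where an annotated first exon begins. Lifr has 2 windows in that table, both inside the annotated gene and not at its most upstream end (chr15:7129322-7129571 and chr15:7140292-7140541, plus strand), and Flt3 (chr5:147400490-147400739, minus strand) and Csf2ra (chr19:61228419-61228668, minus strand) are shown for contrast, since their levels were the most even among the receptors.
Csf3r: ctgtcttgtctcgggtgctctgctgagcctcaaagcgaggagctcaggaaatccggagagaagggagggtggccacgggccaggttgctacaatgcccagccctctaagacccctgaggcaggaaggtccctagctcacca
Lifr, first window: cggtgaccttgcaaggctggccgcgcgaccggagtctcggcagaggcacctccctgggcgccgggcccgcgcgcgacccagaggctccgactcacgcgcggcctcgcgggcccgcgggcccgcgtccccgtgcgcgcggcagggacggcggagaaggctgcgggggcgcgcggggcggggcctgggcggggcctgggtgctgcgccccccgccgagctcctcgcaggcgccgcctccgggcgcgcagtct
Lifr, second window: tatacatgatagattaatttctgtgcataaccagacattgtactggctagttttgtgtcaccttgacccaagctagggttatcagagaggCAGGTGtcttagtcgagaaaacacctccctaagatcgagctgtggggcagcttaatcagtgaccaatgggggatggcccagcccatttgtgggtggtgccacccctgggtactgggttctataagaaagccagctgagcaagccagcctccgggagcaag
Flt3: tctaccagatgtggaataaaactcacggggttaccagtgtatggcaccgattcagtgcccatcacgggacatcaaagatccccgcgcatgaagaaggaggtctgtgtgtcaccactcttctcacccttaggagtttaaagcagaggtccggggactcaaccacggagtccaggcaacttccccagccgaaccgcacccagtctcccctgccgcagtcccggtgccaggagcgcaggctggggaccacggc
Csf2ra: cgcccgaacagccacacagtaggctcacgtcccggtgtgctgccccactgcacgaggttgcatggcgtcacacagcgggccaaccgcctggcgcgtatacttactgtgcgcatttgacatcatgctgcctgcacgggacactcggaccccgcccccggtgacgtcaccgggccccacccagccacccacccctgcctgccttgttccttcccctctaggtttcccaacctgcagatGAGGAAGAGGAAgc
The motif GAGGAA, an ETS core of the kind that PU.1 binds, occurred 2 times in the window of Csf2ra, at -14 and -8 from the start, and in 23.3% of 32851 promoter windows of the same length. The last 11 bases of the Csf2ra window lie in an annotated exon, which holds the second match and the end of the first. CACCTG, the E-box to which ZEB factors bind, occurred in the second Lifr window at -160 from its start, on the other strand, and in 17.2% of all windows. GAGGAA was also found in the windows of Csf2rb2, Kit and Csf3r, in that of Csf3r within the exon that is not shown. TTGCNNAA, a C/EBP site, was found in that of Il3ra, also within an annotated exon, against 9.56% of all windows. No receptor window held the ETS-IRF composite element (2.30% of windows), the core of the interferon-stimulated response element (2.98%) or TGTGGT (a RUNX site, 14.0%). The ETS-IRF and interferon elements share their last bases and can overlap. A match describes letters and no binding was measured here.

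Of the receptor tyrosine kinases, Flt3 was even across all libraries, Kit was lower in cDC1, and Csf1r was close to cDC2-only. Flt3 (chr5:147330741-147400489, minus strand, 6176 bases of exon) had 973 and 960 CPM in Zeb2 mutant cDC1, 871 and 959 CPM in WT cDC1, 926 and 901 CPM in Irf8 mutant cDC2, and 933 and 936 CPM in WT cDC2. Its highest library stood 1.12-fold over its lowest, and 0.0690% of the 13050 genes with a mean of 1 CPM or more had a smaller ratio, which is a description of a gene with many counts and was not tested. No comparison called it, and the 95% interval of its log2 difference ran from -0.17 to 0.33 for Zeb2 mutant cDC1 over Irf8 mutant cDC2 and from -0.28 to 0.22 for WT cDC1 over WT cDC2.

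Kit (chr5:75574916-75656722, plus strand) had 756 and 752 CPM in Zeb2 mutant cDC1, 503 and 708 CPM in WT cDC1, 1154 and 1076 CPM in Irf8 mutant cDC2, and 1110 and 989.8 CPM in WT cDC2. All 4 cDC1 libraries lay below all 4 cDC2 libraries. WT cDC1 were lower than WT cDC2 by a log2 difference of -0.79 ± 0.161 (SE; edgeR adjusted p = 0.00396), which no longer passed without WT cDC2 replicate 2 (-0.68, edgeR adjusted p = 0.0554). Zeb2 mutant cDC1 were lower than Irf8 mutant cDC2 by -0.56 ± 0.161 (edgeR adjusted p = 0.0242), and this call was lost in 6 of the 8 fits that left out 1 library, at values of -0.56 to -0.44. A set of 10 markers of mast cells, which use KIT throughout life, and of basophils summed to 1.58 to 6.98 CPM in the 8 libraries. The sum of 10 progenitor markers was 32.6 to 83.8 CPM.

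Csf1r (chr18:61100598-61132149, plus strand) had 11.4 and 11.3 CPM in Zeb2 mutant cDC1, 15.9 and 13.8 CPM in WT cDC1, 557 and 466 CPM in Irf8 mutant cDC2, and 624 and 612.5 CPM in WT cDC2. The subsets were far apart and the libraries within a group close. The mean of Zeb2 mutant cDC1 was 45.1-fold lower than that of Irf8 mutant cDC2 (log2 difference -5.49 ± 0.160, edgeR adjusted p = 9.87e-09), and that of WT cDC1 41.6-fold lower than that of WT cDC2 (-5.38 ± 0.159, edgeR adjusted p = 1.19e-08). The gene overlaps the antisense gene Hmgxb3 over 873 exon bases, 15.1% of its exon length, and the library kit does not mark strand, so that reads there cannot be told apart. Hmgxb3 itself held 1940 to 2874 counts, and Csf1r 614 to 918 counts in the cDC1 libraries, so that the part of the low cDC1 values that is Csf1r is uncertain.

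**Figure D1:**
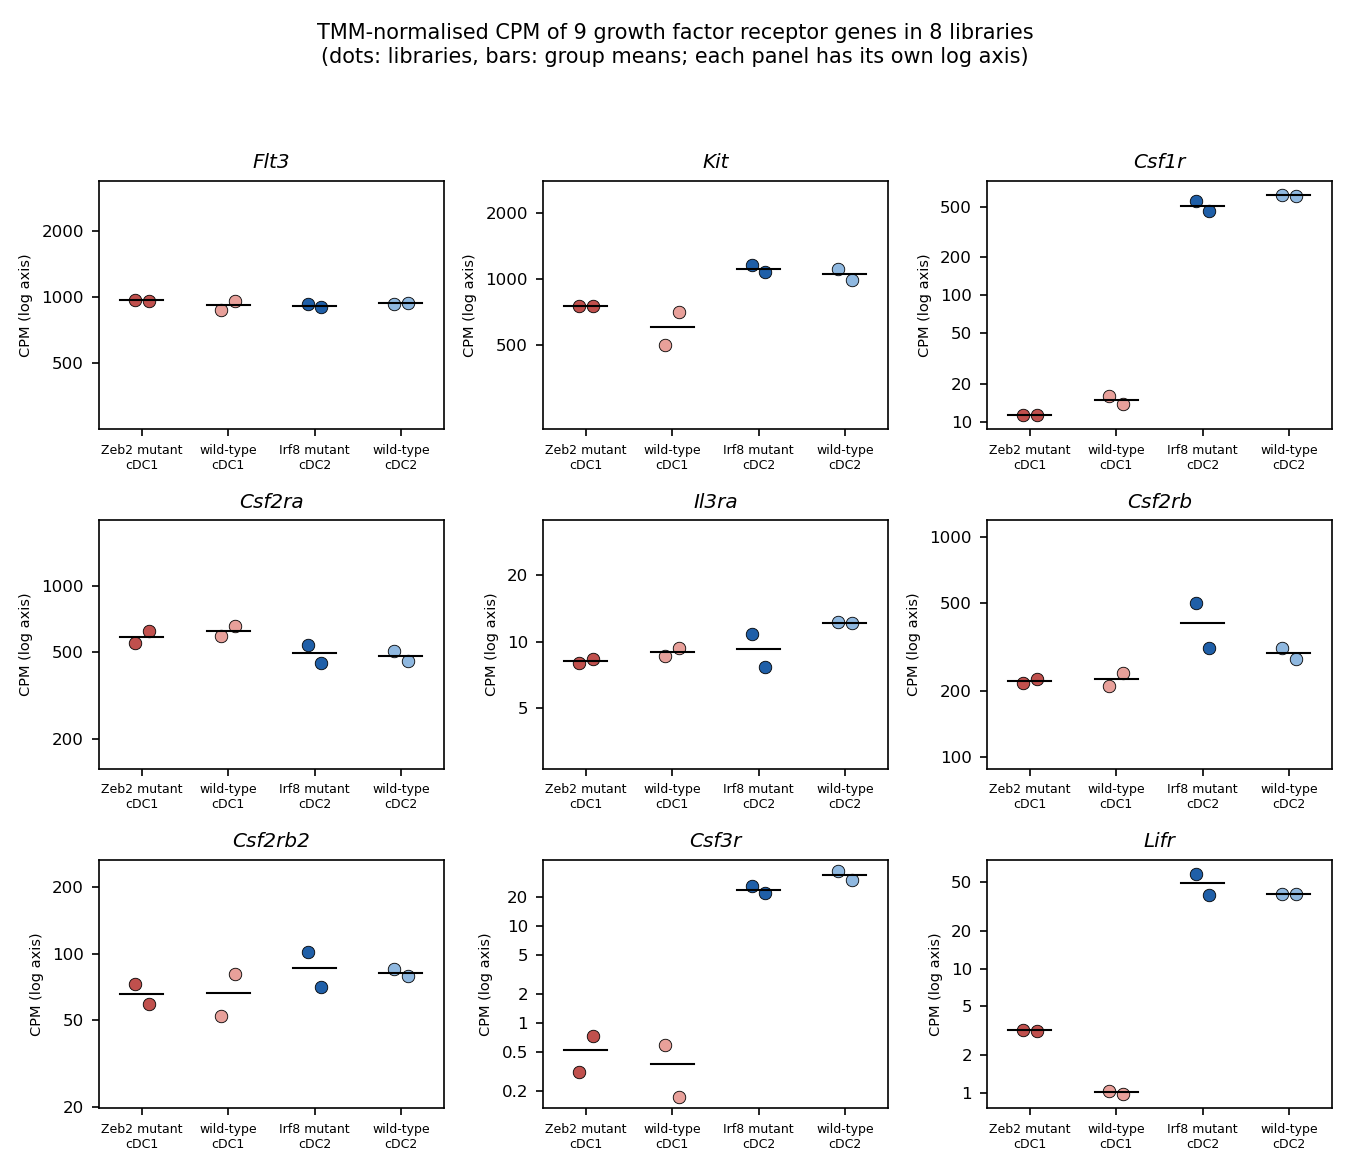
TMM-normalised CPM of the 9 receptor genes (vertical axis, log scale, 1 axis per panel) in the 2 libraries (dots) of each group, with the group mean as a bar. Flt3 lies between 871 and 973 CPM throughout, whereas Csf1r, Csf3r and Lifr are at 15.9 CPM or less in every cDC1 library and at 21.7 CPM or more in every cDC2 library.

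Among the chains for GM-CSF and IL-3, the ligand-binding chain Csf2ra was high in both subsets, Il3ra was low in both, and the shared beta chain was called lower in cDC1 between the mutants but not between the WT groups. Csf2ra (chr19:61223957-61228429, minus strand) had 548 and 623 CPM in Zeb2 mutant cDC1, 591 and 652.5 CPM in WT cDC1, 539 and 447 CPM in Irf8 mutant cDC2, and 506 and 455 CPM in WT cDC2. All cDC1 libraries lay above all cDC2 libraries, yet neither difference passed: WT cDC1 over WT cDC2 gave 0.37 ± 0.140 (edgeR adjusted p = 0.0702) and Zeb2 mutant cDC1 over Irf8 mutant cDC2 gave 0.25 ± 0.140 (edgeR adjusted p = 0.230). The first did pass under 3 alternatives, among them leaving out WT cDC1 replicate 2 (0.43, edgeR adjusted p = 0.0465).

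Il3ra (chr14:14346275-14356011, plus strand) had 8.02 and 8.30 CPM in Zeb2 mutant cDC1, 8.55 and 9.39 CPM in WT cDC1, 10.8 and 7.69 CPM in Irf8 mutant cDC2, and 12.3 and 12.1 CPM in WT cDC2. Both WT cDC2 libraries were above every other library, and no comparison called the gene (WT cDC1 over WT cDC2 -0.44, 95% interval -0.93 to 0.05). A set of 10 markers of plasmacytoid dendritic cells, a cell type known for IL-3 receptors in humans, summed to 118 to 127 CPM in cDC1 and 182 to 231 CPM in cDC2 libraries, with Ccr9 highest in cDC1 and Tcf4 in cDC2. Their part in the Il3ra values was not tested.

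Csf2rb (chr15:78325752-78353847, plus strand), the shared beta chain, had 216 and 225 CPM in Zeb2 mutant cDC1, 212 and 242 CPM in WT cDC1, 500.2 and 312 CPM in Irf8 mutant cDC2, and 315 and 280.1 CPM in WT cDC2. The 4 cDC1 libraries lay below the 4 cDC2 libraries, and Irf8 mutant cDC2 replicate 2 stood far above the other cDC2. Zeb2 mutant cDC1 were lower than Irf8 mutant cDC2 by -0.88 ± 0.196 (edgeR adjusted p = 0.00696). Without Irf8 mutant cDC2 replicate 2 the value was -0.43 (edgeR adjusted p = 0.105), and WT cDC1 over WT cDC2 gave -0.39 ± 0.195 (edgeR adjusted p = 0.166).

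Csf2rb2 (chr15:78282507-78305721, minus strand), the IL-3 beta chain, had 72.9 and 58.8 CPM in Zeb2 mutant cDC1, 52.0 and 80.8 CPM in WT cDC1, 102 and 70.4 CPM in Irf8 mutant cDC2, and 84.997 and 78.8 CPM in WT cDC2. The WT groups overlapped, as did the mutant groups, and no comparison called it. Without WT cDC1 replicate 3, WT cDC1 were lower than WT cDC2 (-0.65, edgeR adjusted p = 0.0475). The 2 beta chain genes lie near each other on opposite strands, and their coding sequences, 2688 bases for Csf2rb and 2634 for Csf2rb2, were 95.4% identical over 2626 aligned bases, with a longest identical run of 242 bases. How such reads were counted is not given in the sources used here, so that their split between the 2 genes is uncertain. The stretch of 90 aligned coding bases that differs most, with 16 differences in capitals, is shown because reads there do tell the genes apart (GENCODE M21, GRCm38, from coding base 308 of Csf2rb and 311 of Csf2rb2).
Csf2rb: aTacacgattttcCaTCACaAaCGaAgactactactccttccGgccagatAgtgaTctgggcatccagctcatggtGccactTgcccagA
Csf2rb2: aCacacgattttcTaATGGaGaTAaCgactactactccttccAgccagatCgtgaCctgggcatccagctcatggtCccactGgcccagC
Of all 150-base windows of their transcripts, 2.30% of those of Csf2rb and 3.34% of those of Csf2rb2 were identical in the other gene. Summing the counts of both genes removes the split of counted reads between them, but does not recover shared reads that may have been left uncounted. The sum was lower in Zeb2 mutant cDC1 than in Irf8 mutant cDC2 by -0.78 ± 0.197 (edgeR adjusted p = 0.0133). Between WT cDC1 and WT cDC2 it did not pass (-0.37 ± 0.196, edgeR adjusted p = 0.190). The sum was not fitted with single libraries left out, and both genes had their highest level in Irf8 mutant cDC2 replicate 2.

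The receptors for G-CSF and LIF, Csf3r and Lifr, were at 1.04 CPM or less in WT cDC1 and at 21.7 CPM or more in cDC2. Csf3r (chr4:126024550-126044440, plus strand) had 0.310 and 0.738 CPM in Zeb2 mutant cDC1 (18 and 40 counts), 0.588 and 0.171 CPM in WT cDC1 (34 and 10 counts), 25.4 and 21.7 CPM in Irf8 mutant cDC2 (1317 and 1064 counts), and 37.0 and 29.2 CPM in WT cDC2 (2035 and 1646 counts). Zeb2 mutant cDC1 averaged 44.9-fold less than Irf8 mutant cDC2 (-5.49 ± 0.469, edgeR adjusted p = 1.19e-05) and WT cDC1 87.3-fold less than WT cDC2 (-6.44 ± 0.491, edgeR adjusted p = 5.48e-06). Between the WT groups this value ran from -7.59 to -5.81 when single libraries were left out, the extremes being without WT cDC1 replicate 2 and without WT cDC1 replicate 3.

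Of 10 markers of neutrophils, which carry the G-CSF receptor, 9 were tested. In both comparisons of cDC1 with cDC2, 1 was called lower in cDC1, the protease gene Mmp9, and 0 higher. Over all tested genes, 15.0% were called lower and 12.8% higher between the mutants, and 15.9% and 14.2% between the WT groups. Mmp9 had 0.155 and 0.627 CPM in Zeb2 mutant cDC1, 0.259 and 0.239 CPM in WT cDC1, 11.0 and 20.3 CPM in Irf8 mutant cDC2, and 29.5 and 23.7 CPM in WT cDC2, a pattern close to that of Csf3r. The 10 markers together summed to 74.1 and 106 CPM in Zeb2 mutant cDC1, 10.5 and 1.18 CPM in WT cDC1, 129 and 58.9 CPM in Irf8 mutant cDC2, and 30.8 and 45.9 CPM in WT cDC2. The highest marker was Ngp in both Zeb2 mutant cDC1, WT cDC1 replicate 2 and Irf8 mutant cDC2 replicate 2, and Mmp9 elsewhere. Leaving it out thus removes different genes in different libraries. Without it the sums were 48.6 and 69.5 CPM in Zeb2 mutant cDC1 and 6.07 and 0.941 CPM in WT cDC1. In Irf8 mutant cDC2 they were 72.5 and 38.7 CPM, and in WT cDC2 1.31 and 22.2 CPM. The part of neutrophil RNA in the Csf3r values was not tested.

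Lifr (chr15:7090614-7197489, plus strand) had 3.20 and 3.17 CPM in Zeb2 mutant cDC1 (186 and 172 counts), 1.04 and 0.975 CPM in WT cDC1 (60 and 57 counts), 58.2 and 38.9 CPM in Irf8 mutant cDC2 (3020 and 1908 counts), and 39.9 and 39.8 CPM in WT cDC2 (2196 and 2241 counts). The groups of the 2 subsets did not overlap, and Zeb2 mutant cDC1 lay above WT cDC1. Lifr averaged 15.2-fold less in Zeb2 mutant cDC1 than in Irf8 mutant cDC2 (-3.93 ± 0.217, edgeR adjusted p = 5.51e-07), and 39.6-fold less in WT cDC1 than in WT cDC2 (-5.31 ± 0.239, edgeR adjusted p = 1.44e-07).

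In all, the comparison of Zeb2 mutant cDC1 with Irf8 mutant cDC2 called 5 of the 9 receptors lower (Kit, Csf1r, Csf2rb, Csf3r and Lifr) and 0 higher, where 27.9% of all tested genes were called, 15.0% as lower and 12.8% as higher. Without Irf8 mutant cDC2 replicate 2, 3 remained called lower, Csf1r, Csf3r and Lifr. WT cDC1 against WT cDC2 called 4 of 9 lower (Kit, Csf1r, Csf3r and Lifr) and 0 higher, where 30.1% of genes were called, 15.9% as lower and 14.2% as higher. These 2 comparisons have no library in common, but they share the fitted spread. Both libraries of the first group lay above or below both of the second for 7 of 9 receptors in each, against 65.8% of all genes between the mutants and 65.0% between the WT groups. In sorted bulk RNA, fewer cells that carry a transcript and less of it per cell cannot be told apart. Of 14 markers of monocytes and macrophages, which are known for CSF1R, 11 were called lower and 1 higher in Zeb2 mutant cDC1 against Irf8 mutant cDC2, and 9 lower and 2 higher in WT cDC1 against WT cDC2. Their summed CPM overlapped (882 and 1215 in Zeb2 mutant cDC1, 1512 and 974 in WT cDC1, 1457 and 1121 in Irf8 mutant cDC2, 1510 and 1445 in WT cDC2), with Lyz2 the most abundant and Fcgr1 at 0 to 1.67 CPM. Without Lyz2 the sums did not overlap between the subsets and were lower in cDC1, as Csf1r was: 297 and 313 CPM in Zeb2 mutant cDC1, 434 and 372 CPM in WT cDC1, 978.5 and 727 CPM in Irf8 mutant cDC2, and 847 and 779 CPM in WT cDC2. Their part in the receptor differences was not tested.

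**Figure D2:**
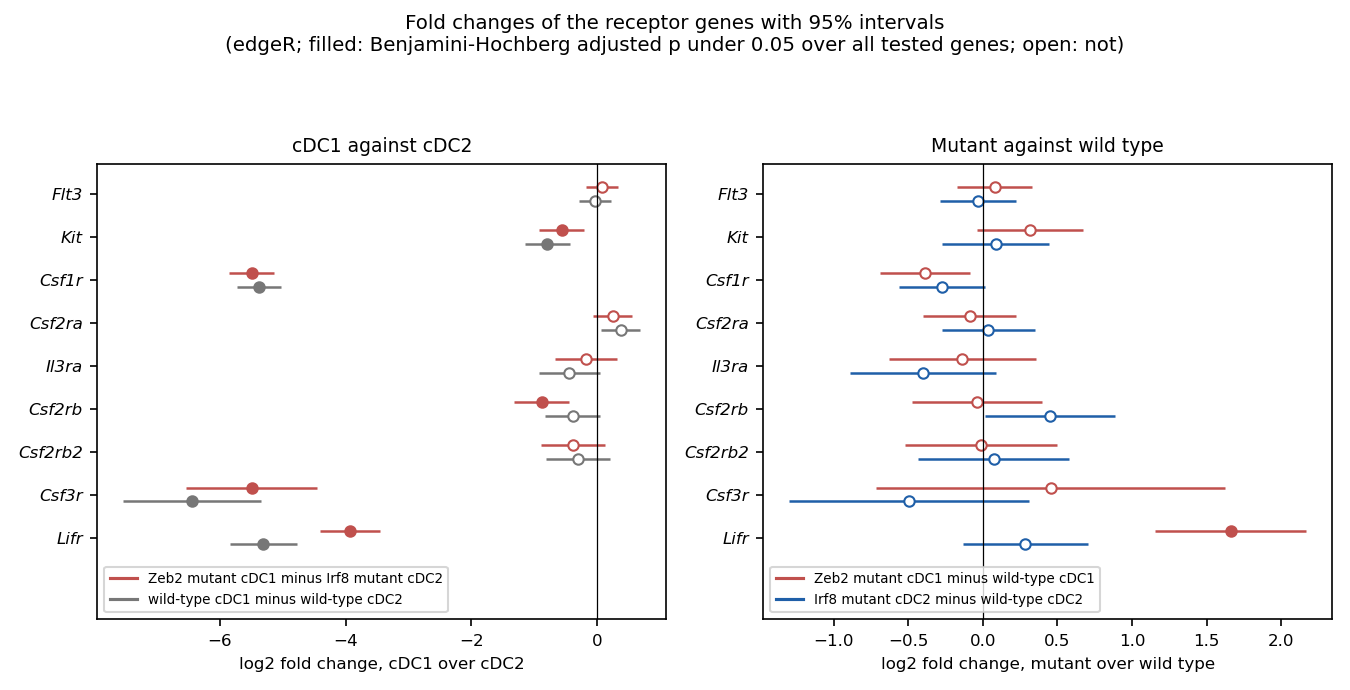
Log2 fold changes (horizontal axis) of the receptor genes with 95% intervals from edgeR, cDC1 over cDC2 at left and mutant over WT at right, filled where the adjusted p was under 0.05. Csf1r, Csf3r and Lifr sit between -6.44 and -3.93 at left, and Lifr in Zeb2 mutant cDC1 is the 1 filled point at right.

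Against WT cDC1, 1 of the 9 receptors was called in the Zeb2 mutant, Lifr, which was 3.17-fold higher (log2 1.66 ± 0.228, edgeR adjusted p = 0.0413). In this comparison 0.0679% of all tested genes were called, 0.0145% as higher and 0.0533% as lower. The 2 Zeb2 mutant libraries held 186 and 172 Lifr counts and the 2 WT libraries 60 and 57, so that replicates differed little beside the groups. The size held in every alternative, from 1.46 to 1.72, but the adjusted p did not: it was 0.0503 in edgeR with RLE size factors, 0.0725 in edgeR with the trend with gene length removed, 0.351 in edgeR on only these 4 libraries, and over 0.05 in 5 of the 8 fits that left out 1 library. DESeq2 called it. At 3.20 and 3.17 CPM, Lifr in Zeb2 mutant cDC1 remained 15.2-fold under Irf8 mutant cDC2. The sum of the 10 cDC2 markers was 42.8 and 33.8 CPM in Zeb2 mutant cDC1 against 55.3 and 41.8 CPM in WT cDC1, and the 1 of them that was called, the lectin gene Cd209a, was lower, with 0.378 and 0.406 CPM against 11.5 and 5.53 CPM (-4.43 ± 0.377, edgeR adjusted p = 0.00322). Csf1r, also high in cDC2, had 11.4 and 11.3 CPM against 15.9 and 13.8 CPM (-0.39 ± 0.136, edgeR adjusted p = 0.372). The neutrophil markers given above were higher in the mutant libraries, and their part was not tested.

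The other 8 receptors were not called in Zeb2 mutant cDC1. Both mutant libraries lay above or below both WT libraries for 5 of the 9 genes, against 39.0% of all genes. Kit was 756 and 752 CPM against 503 and 708 CPM in WT cDC1 (0.32 ± 0.160, edgeR adjusted p = 0.526), and it passed without WT cDC1 replicate 3 (0.62, edgeR adjusted p = 0.0174), the library whose loss also takes the calls over all genes to 755 higher and 323 lower. For Flt3 the 95% interval of the log2 difference was -0.17 to 0.33, for Csf2ra -0.40 to 0.22, for Csf2rb -0.47 to 0.39, for Csf2rb2 -0.52 to 0.49 and for Il3ra -0.63 to 0.35. For Csf3r it ran from -0.71 to 1.62, which leaves its change undetermined at these counts.

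Against WT cDC2, 0 of the 9 receptors were called in the Irf8 mutant in edgeR, which called 0% of all genes, and 0 in DESeq2. Without the adjustment, 1313 genes had an edgeR p under 0.05, and DESeq2 called 76 genes higher and 75 lower. At an unadjusted p under 0.05 there was 1, Csf2rb (0.45 ± 0.195, edgeR adjusted p = 0.770), with 500.2 and 312 CPM in Irf8 mutant cDC2 against 315 and 280.1 CPM in WT cDC2. The groups overlapped, and without Irf8 mutant cDC2 replicate 2 the value was 0.04. In that library Csf2rb2, Lifr and Il3ra were also higher than in replicate 3, by log2 0.53, 0.58 and 0.48, beside 0.68 for Csf2rb and 0.04 for Flt3. In both mutant libraries 4 receptors lay below both WT ones, Flt3, Csf1r, Csf3r and Il3ra, against 19.7% of all genes in this direction and 39.3% in either. Their log2 differences were -0.03, -0.27, -0.49 and -0.40, each with an edgeR adjusted p of 0.809 or more. Of the 95% intervals of the 9 receptors, that of Csf3r was the widest (-1.30 to 0.31). That of Csf2rb ran from 0.02 to 0.88, that of Csf1r from -0.56 to 0.02 and that of Il3ra from -0.89 to 0.09. The absence of a call thus does not show the absence of a change.

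The difference between the 2 mutant effects, the Zeb2 effect in cDC1 minus the Irf8 effect in cDC2, was called for 0 of 9 receptors in edgeR, which called 0.0194% of genes. At an unadjusted edgeR p under 0.05 there was 1, Lifr (1.38 ± 0.296, edgeR adjusted p = 0.279), beside 1573 of all 20631 tested genes. DESeq2 called Lifr (DESeq2 adjusted p = 0.0134).

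Per kilobase of exon, so that genes can be set side by side, Csf2ra, Flt3 and Kit led in this order in every group, and the place of Csf1r marked the subset. The length used is that of all annotated exons of a gene, so that the order depends on the annotation. By CPM alone, Flt3 averaged above Csf2ra in every group. Kit averaged above Flt3 in Irf8 mutant cDC2 (1115 against 913 CPM) and WT cDC2 (1050 against 935 CPM). It stayed below Flt3 in both cDC1 groups. In Zeb2 mutant cDC1 the levels were 204 ± 18.5 for Csf2ra, 156 ± 1.41 for Flt3, 84.6 ± 0.313 for Kit, 30.3 ± 0.891 for Csf2rb and 13.9 ± 2.10 for Csf2rb2 (CPM per kilobase, SD, n = 2), and Il3ra, Csf1r, Lifr and Csf3r followed at 2.75 to 0.145. In WT cDC1 the order was the same but for the last places, where Csf3r (0.105) and Lifr (0.0934) overlapped. In Irf8 mutant cDC2 Csf1r came after Kit at 88.6 ± 11.1, ahead of Csf2rb at 55.8 ± 18.3, Csf2rb2 at 18.2 ± 4.72 and Csf3r at 6.52 ± 0.718, and Lifr (4.504) and Il3ra (3.11) overlapped. In WT cDC2 Csf1r again came after Kit at 107 ± 1.36, and Csf2rb at 40.9 ± 3.38, Csf2rb2 at 17.3 ± 0.920, Csf3r at 9.18 ± 1.52, Il3ra at 4.11 ± 0.0340 and Lifr at 3.70 ± 0.00839 followed. All neighbours in these orders other than the 2 pairs named did not overlap. The authors' deposited TPM gave the same order in each group, but it rescales the same counts and lengths and is no separate check.

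As a share of the summed level per kilobase of the 9 genes, Csf1r made up 0.388% to 0.408% in Zeb2 mutant cDC1, 0.463% to 0.611% in WT cDC1, 14.1% to 14.4% in Irf8 mutant cDC2 and 16.9% to 17.7% in WT cDC2. The level of Csf2ra stood 6.42 and 7.01 times over that of Csf2rb in Zeb2 mutant cDC1, 7.08 and 6.83 times in WT cDC1, 2.73 and 3.63 times in Irf8 mutant cDC2, and 4.07 and 4.12 times in WT cDC2. The ligand-binding GM-CSF chain thus exceeded its partner's transcript in every library, with the higher ratios in cDC1, a difference that was not tested. The size of these ratios rests on the exon lengths used. Over that of Il3ra, the level of Csf2ra stood 70.6 to 77.6 times in the cDC1 libraries and 38.8 to 60.0 times in the cDC2 libraries.

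**Figure D3:**
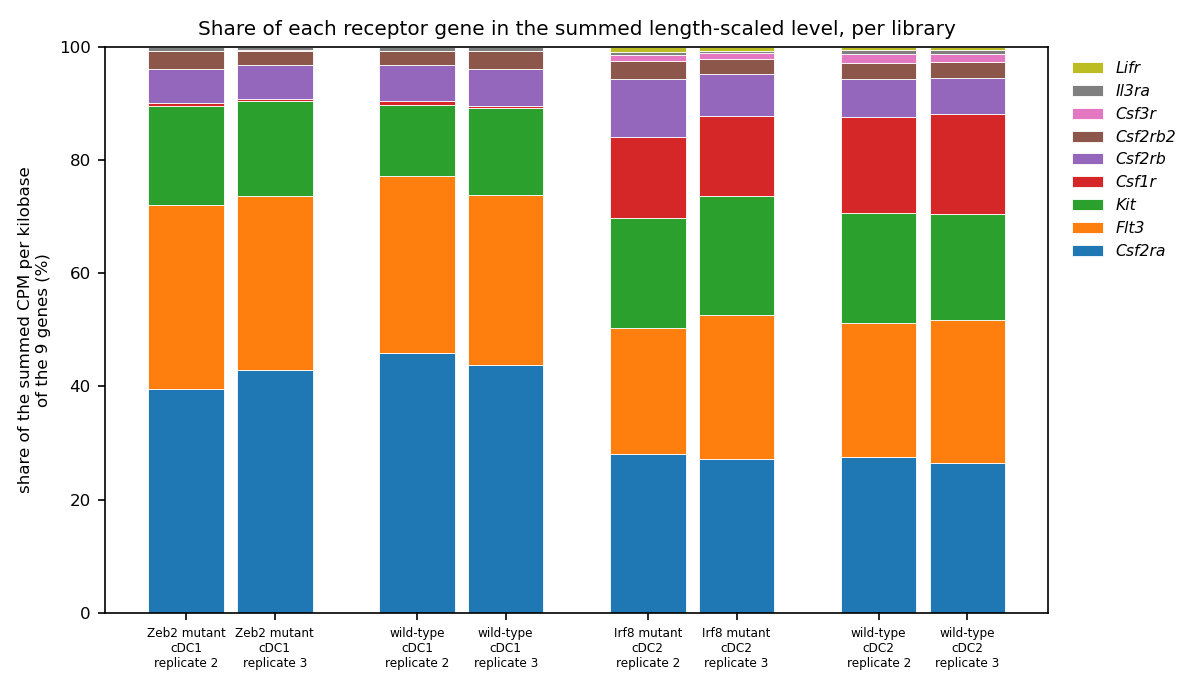
Share (vertical axis, percent) of each receptor gene in the summed TMM-normalised CPM per kilobase of the 9 genes, 1 bar per library. Csf1r takes 14.1% to 17.7% in the cDC2 libraries and at most 0.611% in the cDC1 libraries.

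The genes whose pattern over the 8 libraries was most like that of each receptor were sought among 10719 genes, by the root mean square difference of centred log2 levels. Nearest to Csf1r were Irf4 (0.188), a transcription factor of cDC2, St8sia6 and Sh2d1b1. Nearest to Csf3r were Cyp4f18 (0.366), Cd300ld and Zeb2 (0.469), and Zeb2 had 2.89 and 2.10 CPM as means of Zeb2 mutant and WT cDC1 and 185 and 200 CPM as means of Irf8 mutant and WT cDC2. Nearest to Lifr were Cdhr1 (0.337), Itgb3, the integrin beta 3 chain, and Cd72. Because these genes were chosen for likeness to Lifr, a higher level in Zeb2 mutant cDC1 than in WT cDC1 is partly built in. Itgb3 had means of 4.53 CPM in Zeb2 mutant cDC1 and 1.72 CPM in WT cDC1. Nearest to Kit were Susd6 (0.0689), Nf2 and Iqgap1, to Flt3 Dazap1 (0.0224), Zdhhc3 and Setd5, and to Csf2ra Ssna1 (0.0515), Pmpca and Dpp3. Nearest to Csf2rb were Slc35f6 (0.0991), Lrrfip1 and Hs6st1, to Csf2rb2 Adar (0.0907), Pramef8 and Brpf1, and to Il3ra Apba3 (0.0618), Wdr6 and Fmnl1. The libraries fall into 2 subsets, which any gene that differs between them shares.

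Of the ligands of these receptors, 3 of 9 were high enough to be tested, and Lif was the 1 that was called. It had 4.20 and 3.63 CPM in Zeb2 mutant cDC1, 6.999 and 12.1 CPM in WT cDC1, 2.25 and 0.836 CPM in Irf8 mutant cDC2, and 1.64 and 1.24 CPM in WT cDC2. It was higher in Zeb2 mutant cDC1 than in Irf8 mutant cDC2 (1.34 ± 0.449, edgeR adjusted p = 0.0492) and higher in WT cDC1 than in WT cDC2 (2.72 ± 0.463, edgeR adjusted p = 0.00133). The call between the mutants was lost in 5 of the 8 fits that left out 1 library, those without either Zeb2 mutant cDC1, either WT cDC2 or Irf8 mutant cDC2 replicate 3, whereas the call between the WT groups was made in all 8. Flt3l and Csf1 were at 2.81 to 5.33 and 3.80 to 10.3 CPM and were not called, and Csf2, the gene of GM-CSF, had 0 counts in 7 of the 8 libraries.

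Related receptors, the partners and relatives of the 9, were called lower in cDC1 more often than higher. Between Zeb2 mutant cDC1 and Irf8 mutant cDC2, 5 of 13 tested were called lower and 0 higher (list median -0.59, all genes -0.02), and between WT cDC1 and WT cDC2 6 lower and 1 higher (median -0.84, all genes 0.03). Over all tested genes 15.0% were called lower and 12.8% higher between the mutants, and 15.9% lower and 14.2% higher between the WT groups. These shares, to set beside this and the next 4 lists, include genes of low level and are not matched to the levels of the lists. Without Zeb2 mutant cDC1 replicate 2 or Irf8 mutant cDC2 replicate 2, 3 were called lower between the mutants. Il6st, the gp130 chain that pairs with LIFR, had 193 and 224 CPM in Zeb2 mutant cDC1, 144 and 232 CPM in WT cDC1, 482 and 487 CPM in Irf8 mutant cDC2, and 536 and 529 CPM in WT cDC2 (-1.22 ± 0.196, edgeR adjusted p = 0.000984 between the mutants; -1.50 ± 0.198, edgeR adjusted p = 0.000247 between the WT groups). Il2rg, the common gamma chain, was lower by -3.33 ± 0.181 (edgeR adjusted p = 5.03e-07) between the mutants and by -2.84 ± 0.177 (edgeR adjusted p = 1.28e-06) between the WT groups, and Il4ra by -1.88 and -1.69. Il11ra1 was the 1 called higher in WT cDC1, with a mean of 14.1 CPM against 8.89 CPM in WT cDC2, a call lost in 6 of the 8 fits that left out 1 library.

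Of 16 tested signal transducers behind the receptors, 12 were called lower and 3 higher between Zeb2 mutant cDC1 and Irf8 mutant cDC2 (list median -0.67), and 12 lower and 2 higher between WT cDC1 and WT cDC2 (median -0.85). Fewer were called lower between the mutants in some fits that left out 1 library. Jak2, the kinase of the shared beta chain, averaged 512 CPM in Zeb2 mutant cDC1 and 818 CPM in Irf8 mutant cDC2 (-0.68 ± 0.136, edgeR adjusted p = 0.00373), and 373 CPM in WT cDC1 and 814 CPM in WT cDC2 (-1.13 ± 0.137, edgeR adjusted p = 0.000139). Stat5b, its main target factor, was lower by -0.96 and -1.25, Stat3 by -0.69 and -0.96, and Pik3r1, a regulatory subunit of PI3 kinase, by -1.81 and -1.52, all called. Tyk2 (0.72 and 0.57) and the adaptor Shc1 (0.70 and 0.50) were called higher in cDC1 in both, and the phosphatase Ptpn11 (0.59) between the mutants. These higher calls were fewer with 1 library left out: 1 remained between the mutants without Zeb2 mutant cDC1 replicate 3 or Irf8 mutant cDC2 replicate 3, and 0 between the WT groups without WT cDC1 replicate 3 or either WT cDC2 library.

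Of 9 negative regulators, 4 were called lower and 0 higher in each of the 2 comparisons (list medians -0.21 between the mutants and -0.29 between the WT groups). Ptpn6, a phosphatase that damps receptor signals, averaged 240 CPM in Zeb2 mutant cDC1 and 778 CPM in Irf8 mutant cDC2 (-1.70 ± 0.121, edgeR adjusted p = 3.33e-06), and 230 CPM in WT cDC1 and 881 CPM in WT cDC2 (-1.94 ± 0.122, edgeR adjusted p = 1.34e-06). Spred1 (-2.10 and -1.40) was also lower in both, Dok1 (-0.85) between the mutants and Sh2b3 (-0.46) between the WT groups. Between the mutants, 2 were called lower without either Zeb2 mutant cDC1 library or without Irf8 mutant cDC2 replicate 2, and 1 was called higher without either WT cDC1 library. Between the WT groups, 1 was called higher without WT cDC1 replicate 2.

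Of 9 target and feedback genes of STAT factors, 7 were called lower and 0 higher between Zeb2 mutant cDC1 and Irf8 mutant cDC2 (list median -1.48), and 5 lower and 0 higher between WT cDC1 and WT cDC2 (median -1.06). Between the mutants, the number called lower moved both up and down with single libraries left out. Osm, a cytokine of the LIF family, had 3.39 and 3.96 CPM in Zeb2 mutant cDC1, 3.54 and 2.87 CPM in WT cDC1, 43.6 and 28.2 CPM in Irf8 mutant cDC2, and 33.6 and 33.4 CPM in WT cDC2. Its differences were -3.29 ± 0.242 (edgeR adjusted p = 4.09e-06) between the mutants and -3.38 ± 0.243 (edgeR adjusted p = 3.58e-06) between the WT groups. Socs3, an inhibitor that gp130 signals induce, was lower by -1.38 and -1.37, Ccnd1 by -1.84 and -1.32, Myc by -2.10 and -1.06, and Cish, an inhibitor that STAT5 induces, by -1.74 and -1.23. Socs2 (-1.48) and Socs1 (-0.66) passed between the mutants and not between the WT groups (0.14 and -0.06). Between the WT groups, 3 of the 9 were called lower without either WT cDC2 library, and 1 was called higher without WT cDC1 replicate 3.

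Of 11 transcription factors known to act on these receptor genes or on the choice between the subsets, 7 were called lower and 2 higher between Zeb2 mutant cDC1 and Irf8 mutant cDC2 (list median -0.81), and 8 lower and 2 higher between WT cDC1 and WT cDC2 (median -1.16). Irf8 (4.74 and 4.91) and Id2 (0.97 and 1.92) were higher in cDC1, and Zeb2, Cebpb (-2.43 and -3.09), Klf4 (-1.93 and -2.23), Tcf4 (-1.66 and -1.86) and Spi1, the gene of PU.1 (-0.81 and -0.51), were lower. Between the WT groups, 5 were called lower without either WT cDC2 library.

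Against WT cells, 0 of the 61 tested genes of the 6 lists were called in edgeR for either mutant. Of all 20631 tested genes, 2176 had an unadjusted edgeR p under 0.05 for the Zeb2 mutant and 1313 for the Irf8 mutant. DESeq2 called 158 genes higher and 147 lower for the Zeb2 mutant, and 76 and 75 for the Irf8 mutant. In Zeb2 mutant cDC1, 18 of the 61 had an unadjusted p under 0.05, and DESeq2 called 3 higher and 3 lower. Without WT cDC1 replicate 3, edgeR called 3 related receptors, 5 signal transducers and 1 negative regulator higher and 3 STAT target and feedback genes and 2 transcription factors lower. Without WT cDC1 replicate 2 it called 1 related receptor higher and 1 STAT target or feedback gene lower. In Irf8 mutant cDC2, 10 of the 61 had an unadjusted p under 0.05, DESeq2 called 1 higher and 1 lower, and edgeR called 1 transcription factor lower without either WT cDC1 library and 1 higher without WT cDC1 replicate 2. Closest to a call were Il7r in Zeb2 mutant cDC1, with 22.3 and 22.6 CPM against 12.3 and 8.42 CPM in WT cDC1 (1.12, edgeR adjusted p = 0.0871), and Klf4 in Irf8 mutant cDC2, with 215 and 237 CPM against 419 and 469 CPM in WT cDC2 (-0.97, edgeR adjusted p = 0.0507).

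**Figure D4:**
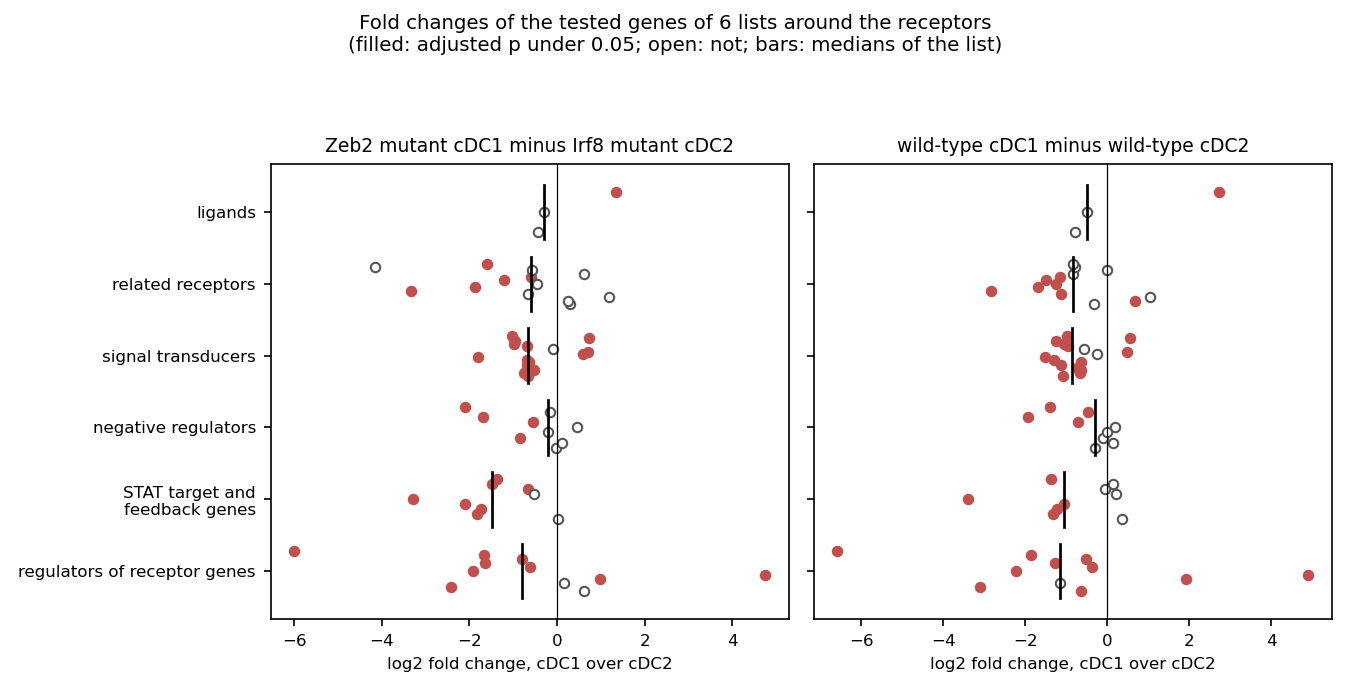
Log2 fold changes of cDC1 over cDC2 (horizontal axis) for the tested genes of the 6 lists, between the mutants at left and between the WT groups at right, filled where the edgeR adjusted p was under 0.05, with the list's median as a bar. All 6 medians lie below 0 in both panels, from -1.48 to -0.21 at left and from -1.16 to -0.29 at right. The ligand list holds 3 tested genes, and the 1 called, Lif, is higher in cDC1 in both panels.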

How the data were processed

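The authors deposited 1 table per library with a count, CPM, FPKM and TPM per Ensembl gene, per the file headers. Aligners and counters in the submitters' processing notes are STAR, Subread featureCounts and Salmon (build GRCm38); strand setting and shared-read handling are not stated. Per the labels' protocols, RNA of 100000 sorted cells went into the SMARTer Ultra Low kit. The deposited CPM is the count over its column total, FPKM is CPM per kilobase and TPM is FPKM rescaled, as checked on the values. Counts alone were tested, and the deposited TPM was only set beside the order of levels. Symbols were matched for 55141 of 55487 IDs.

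In R 4.3.3, edgeR 4.0.16 kept 20631 genes (filterByExpr), scaled libraries with TMM and fitted a robust quasi-likelihood model with 1 coefficient per group over all 8 libraries (4 residual degrees of freedom). P-values were adjusted (Benjamini-Hochberg) over all tested genes, and a standard error (SE) is the log2 difference over the square root of F. Alternatives were DESeq2 1.42.0, other scalings and filters, fewer libraries, a replicate block and removal of the trend with gene length. The fit was tested on simulated counts, and coding sequences were aligned with Biopython 1.88. Members and lists were chosen with earlier results of these data known. The rule named all receptors, Irf8 and Zeb2, up to 4 called genes per list by smallest adjusted p, and the 3 likest genes. Flt3l, Csf1, Csf2, Il11ra1, Il7r, Tyk2, Shc1, Ptpn11, Cish, Socs1, Socs2, Id2, Tcf4, Spi1, Cd209a, Mmp9 and other markers were named after their values were seen. The values of 1 listed gene are not reported here.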

Additional observations from a re-analysis of the deposited data

Results flagged for a closer look

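Cd209a was flagged because the Zeb2 effect in cDC1 and the Irf8 effect in cDC2 differed in the test of the difference itself (log2 -4.57, edgeR adjusted p = 0.0250). It was lower in Zeb2 mutant than in WT cDC1 (-4.43), with 0.378 and 0.406 CPM against 11.5 and 5.53 CPM, while it had 431 and 343 CPM in Irf8 mutant cDC2 against 381 and 324 CPM in WT cDC2 (0.13).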

How the results depend on the processing

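Of the receptors' log2 differences under all alternatives, 554 kept direction and side of the threshold, 8 newly passed, 17 no longer passed and 20 changed sign; of the counts of genes and receptors, 245 stayed within 1.5 times and 79 did not. The fit of the summed beta chain counts is entered under both Csf2rb and Csf2rb2. That sum, and not Csf2rb2 alone, is the Csf2rb2 value between the mutants that newly passed (-0.78). Causes were not tested. With RLE size factors, Zeb2 mutant against WT cDC1 called 1 gene and 0 receptors higher, and Irf8 mutant against WT cDC2 4 genes higher and 3 lower. With total counts only, WT cDC1 against WT cDC2 called 1 receptor higher (Csf2ra), Flt3 there was 0.050, and Csf2rb2 in the Zeb2 comparison 0.012. Without a filter, calls were 258 higher and 219 lower (Zeb2), 125 and 74 (Irf8), and 139 and 167 with 1 receptor higher (difference of effects). A stricter filter called 1 receptor higher between the WT groups and 4 genes higher and 3 lower in the Irf8 comparison. DESeq2 called 158 higher and 147 lower (Zeb2), 76 and 75 (Irf8), and 81 and 81 with 1 receptor higher (difference). On 4 libraries alone, calls were 0 higher and 2 lower with 0 receptors higher (Zeb2) and 3 and 3 (Irf8). With the length trend removed, 1 gene and 0 receptors were higher (Zeb2) and 2 genes (Irf8), Flt3 was 0.10 between the WT groups and -0.014 in the Zeb2 comparison, and Csf2ra 0.0031 there.

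Same-numbered libraries did not deviate together (r of replicate differences -0.18 between Zeb2 mutant and WT cDC1 and 0.069 between Irf8 mutant and WT cDC2), so the numbers are not taken as pairs; with a replicate block 1 gene was lower in the difference of effects. A crossed block, chosen after seeing the data, called 6 genes higher in the Zeb2 comparison.

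Leaving out each library in turn, genes called higher and lower ranged 1721 to 3171 and 2091 to 3634 between the WT groups, 1681 to 3466 and 2051 to 3648 between the mutants, 1 to 755 and 2 to 323 (Zeb2), 0 to 18 and 0 to 10 (Irf8), and 0 to 541 and 0 to 164 (difference). Receptors called higher ranged 0 to 1 (WT) and 0 to 2 (Zeb2), and lower 3 to 5 (mutants). Signs changed for Flt3 between the WT groups (-0.099 to 0.029), Il3ra between the mutants (-0.34 to 0.15), Csf2ra (-0.18 to 0.018), Csf2rb (-0.12 to 0.094), Csf2rb2 (-0.28 to 0.37) and Csf3r (-0.29 to 1.60) in the Zeb2 comparison, and Kit (-0.026 to 0.15), Csf2ra (-0.14 to 0.14), Csf2rb2 (-0.25 to 0.29) and Lifr (-0.069 to 0.52) in the Irf8 comparison. Depth limits Csf3r in cDC1, at 10 to 40 counts per library.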
